A study of Saccharomyces cerevisiae with 16 samples.

Results

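Aminoacyl-tRNA synthetases join each amino acid to its transfer RNA, and the charged tRNAs carry the amino acids to the ribosome. Yeast cells translate in the cytosol and also inside the mitochondrion, where a small set of mitochondrially encoded proteins, mostly subunits of the respiratory chain and ATP synthase, is made. For most amino acids a separate nuclear gene encodes the mitochondrial enzyme, while a few genes make both forms. Uncharged tRNA, which accumulates when an amino acid is short, activates the kinase Gcn2 and through it the translation of the transcription factor Gcn4.

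The 32 genes described here were chosen by symbol, 19 for cytosolic and 13 for mitochondrial charging, of 5449 genes with a probe set on the array. All 32 had 1 probe set each and all passed the filter on low values. The cytosolic group holds ALA1, CDC60, DED81, DPS1, FRS1, FRS2, GLN4, GRS1, GUS1, HTS1, ILS1, KRS1, MES1, SES1, THS1, TYS1, VAS1 and WRS1, together with ARC1, which is not a synthetase but a tRNA-binding cofactor of the enzymes made from GUS1 and MES1. Of these, 4 (ALA1, GRS1, HTS1 and VAS1) make both the cytosolic and the mitochondrial enzyme from a single gene, and a probe set cannot tell the forms apart. The mitochondrial group holds DIA4 (serine), ISM1 (isoleucine), MSD1 (aspartate), MSE1 (glutamate), MSF1 (phenylalanine), MSK1 (lysine), MSM1 (methionine), MSR1 (arginine), MST1 (threonine), MSW1 (tryptophan), MSY1 (tyrosine), NAM2 (leucine) and SLM5 (asparagine).

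RNA came from *S. cerevisiae* CEN.PK113-7D, a laboratory strain much used in yeast physiology, grown on mineral salts medium. Growth was limited by glucose at the start, and the glucose supply was then raised linearly, so that ammonia became limiting. The series with oxygen and the series without oxygen each gave 8 samples in time order, 1 array per sample. In the aerobic series the early samples had feed glucose of 1, 5.51 and 8.5 g/L (0, 4.1 and 6.85 h), the mid samples 11.56 and 16.96 g/L (9.6 and 14.5 h) and the late samples 30.97, 47.91 and 60.34 g/L (27.25, 42.65 and 53.95 h). In the anaerobic series these were 1, 4.87 and 10.31 g/L (0, 4.35 and 10.38 h), 16.19 and 24.86 g/L (16.88 and 26.52 h), and 33.1, 39.56 and 46.75 g/L (35.67, 42.85 and 50.85 h). Separate cultures are not named in the labels, so the p-values here reflect the spread among serial samples alone, and oxygen and culture cannot be told apart. RNA was taken from whole cultures, so fewer cells with a transcript and less of it per cell cannot be told apart either.

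Markers of a-cells averaged 12.19 or above on every array. Of the alpha-cell markers, MF(ALPHA)2 did not pass the filter and the other 3 averaged 6.89 to 11.02. Both marker lists moved with the aerobic samples: all 6 a-cell markers were called higher late (median change 1.85), and so were MF(ALPHA)1, by 7.04 ± 1.07 (adjusted p = 0.00213), and SAG1, by 1.47 ± 0.31 (adjusted p = 0.0109), of the 3 alpha-cell markers. The alpha-cell mean was 6.89 at 6.85 h, the lowest aerobic value, and 11.02 at 27.25 h, the highest. The part of these markers in the changes below was not tested. Genes of oxygen-poor growth averaged 5.60 to 5.91 log2 units on the aerobic arrays and 9.81 to 14.95 on the anaerobic ones, where the samples at 0 h and 4.35 h were lowest. The mean of 5 nitrogen-scavenging genes (DAL80, GAP1, MEP2, DAL5 and DIP5) was 11.58 at 0 h, 8.91 and 8.81 in the next 2 aerobic samples, and 14.64 to 15.24 from 9.6 h onwards. In the anaerobic series it was 12.51 at 0 h, 9.97 to 10.86 in samples 2 to 6, and 14.73 and 14.80 in samples 7 and 8. The first of the 3 anaerobic late samples therefore still had the low value. Over tested genes the aerobic 9.6 h array correlated with the rest of its series at a median of 0.776, against 0.86 to 0.927 for the other aerobic arrays, and so stood apart. The 0 h samples precede the glucose increase. The main counts and changes are therefore also given without the 9.6 h array and both 0 h arrays, called below the 13-array fit.

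Along the aerobic series all 13 mitochondrial synthetase changes, late against early, were negative. The compartments were not tested against each other. Of the 13 genes 8 were called lower, and no cytosolic gene was called. The 8 were MSY1, MST1, DIA4, MSD1, MSM1, MSW1, ISM1 and MSR1, and the median change over the 13 genes was -1.01 on the log2 scale, with a range from -1.65 to -0.19. None of the 19 cytosolic genes was called in either direction with limma, 6 of them had an unadjusted p under 0.05, and their median change was -0.33, with a range from -0.77 to 0.23. Over all 5213 tested genes, 4.28% were called lower and the median change was 0.10. In 10 of 13 mitochondrial and 6 of 19 cytosolic genes all 3 late samples lay below all 3 early ones, which held for 17.6% of all tested genes. A call means a Benjamini-Hochberg adjusted p under 0.05 in the limma fit over all tested genes. Here and below, counts at an unadjusted p under 0.05 come without the share of all tested genes at that threshold. They cannot be read against the shares of called genes.

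**Figure D1:**
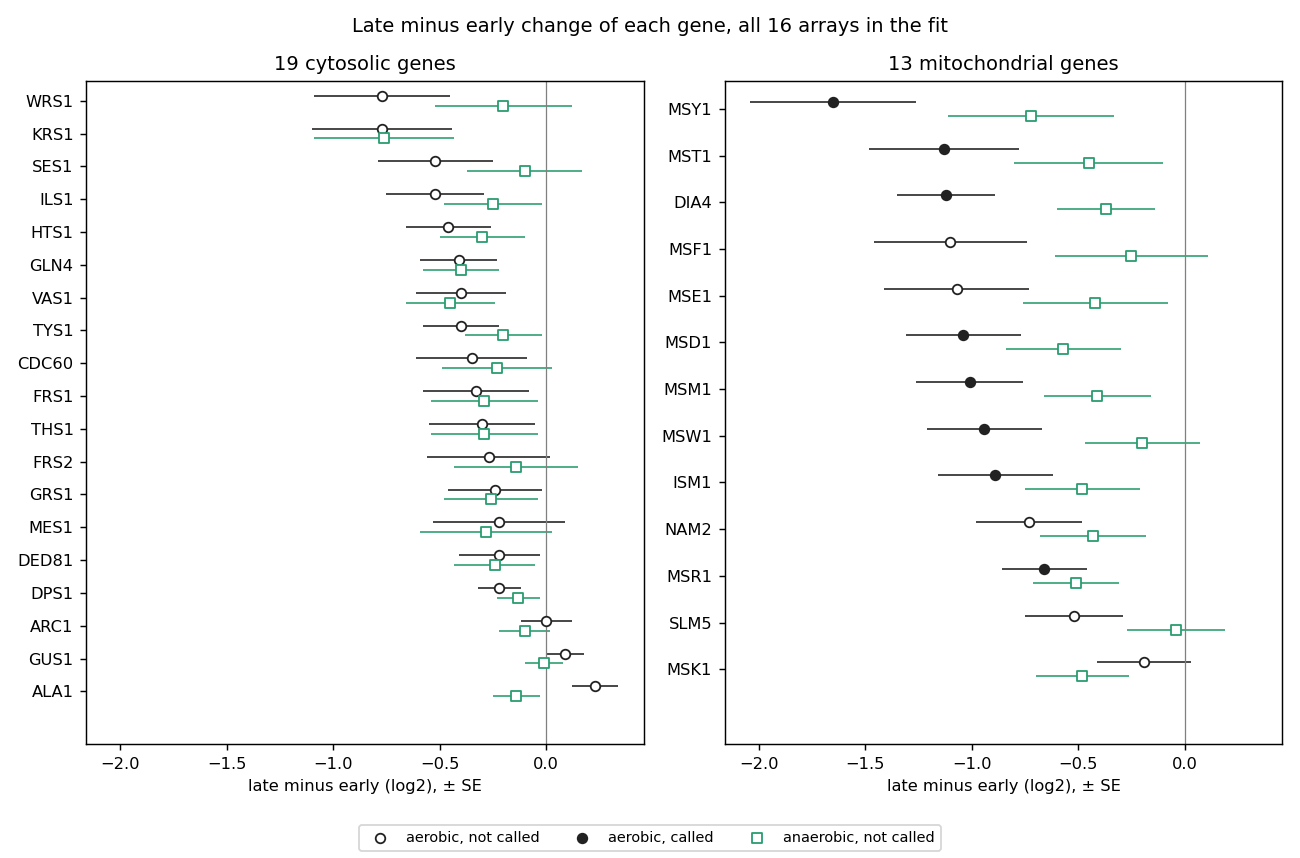
Late minus early change in log2 units (x axis) of each gene (y axis), cytosolic at left and mitochondrial at right, with bars of 1 standard error and filled symbols for called genes. The 8 filled circles all belong to mitochondrial genes of the aerobic series, and no square, for the anaerobic series, is filled.

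The largest mitochondrial change was that of MSY1, the tyrosyl-tRNA synthetase. Along the aerobic series MSY1 measured 10.90, 12.48 and 12.45 in the early samples, 10.39 and 10.03 in the mid samples and 10.32, 10.29 and 10.29 in the late samples. All late values lay below all early ones, and the samples at 4.1 and 6.85 h stood well above the other 6. The change was -1.65 ± 0.39 (SE; adjusted p = 0.0169), or 3.13-fold lower, and -2.17 ± 0.27 (adjusted p = 0.000207) in the 13-array fit.

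MST1, the threonyl enzyme, measured 10.06, 11.57 and 11.30 in the early samples, 9.66 and 9.58 in the mid samples and 9.89, 9.73 and 9.91 in the late samples. DIA4, the probable seryl enzyme, measured 10.05, 10.90 and 10.67 in the early samples, 9.45 and 9.65 in the mid samples and 9.58, 9.38 and 9.29 in the late samples. For both genes the early and late samples did not overlap, and DIA4 had its lowest value in the last sample. MST1 changed by -1.13 ± 0.35 (SE; adjusted p = 0.0463). DIA4 changed by -1.12 ± 0.23 (SE; adjusted p = 0.00957), and it was the only one of the 8 genes still called when any single array was left out.

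MSD1, for aspartate, measured 10.68, 11.65 and 11.60 in the early samples, 10.16 and 10.10 in the mid samples and 10.33, 10.20 and 10.26 in the late samples. MSM1, for methionine, measured 10.20, 11.34 and 11.31 in the early samples, 9.99 and 9.97 in the mid samples and 9.93, 9.91 and 9.98 in the late samples. MSM1 was nearly level from 9.6 h onwards, within 0.10 log2 units, and both genes had all late values below all early ones. The changes were -1.04 ± 0.27 (SE; adjusted p = 0.0241) for MSD1 and -1.01 ± 0.25 (SE; adjusted p = 0.0211) for MSM1.

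MSW1, for tryptophan, measured 9.84, 10.89 and 10.48 in the early samples, 8.63 and 9.43 in the mid samples and 9.49, 9.37 and 9.54 in the late samples. Its lowest value was that of the 9.6 h array, and its change was -0.94 ± 0.27 (SE; adjusted p = 0.0393). ISM1, for isoleucine, measured 10.95, 12.04 and 11.90 in the early samples, 10.28 and 10.68 in the mid samples and 10.85, 10.68 and 10.68 in the late samples, a change of -0.89 ± 0.27 (SE; adjusted p = 0.0449). MSR1, for arginine, measured 11.21, 11.92 and 11.87 in the early samples, 11.04 and 10.93 in the mid samples and 11.08, 10.86 and 11.06 in the late samples, a change of -0.66 ± 0.20 (SE; adjusted p = 0.045). In these 3 genes too the late and early samples did not overlap, with the 0 h value nearest to the late ones.

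The other 5 mitochondrial genes did not pass the test with all 16 arrays. MSF1, for phenylalanine, measured 10.56, 12.08 and 11.86 in the early samples, 10.61 and 10.10 in the mid samples and 10.42, 10.32 and 10.44 in the late samples, a change of -1.10 ± 0.36 (SE; adjusted p = 0.056). MSE1, for glutamate, measured 10.76, 12.26 and 12.16 in the early samples, 10.55 and 10.43 in the mid samples and 10.63, 10.64 and 10.70 in the late samples, a change of -1.07 ± 0.34 (SE; adjusted p = 0.0531). Both had late samples wholly below the early ones, with the 0 h sample within 0.20 log2 units of the highest late one. NAM2, the leucyl enzyme, which also takes part in splicing of mitochondrial introns, changed by -0.73 ± 0.25 (SE; adjusted p = 0.0656). SLM5, for asparagine, changed by -0.52 ± 0.23 (SE; adjusted p = 0.153). MSK1, for lysine, differed in shape: it measured 11.54, 12.45 and 12.35 in the early samples, 10.95 and 11.07 in the mid samples and 11.96, 11.83 and 11.96 in the late samples, so that its late values lay above the 0 h value and its change was -0.19 ± 0.22 (SE; adjusted p = 0.58).

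The count of 8 depended on single arrays. It was 13 without the aerobic 0 h array, when 6 cytosolic genes were also called lower, and 1 without any one of the other 5 aerobic early or late arrays. Leaving out the anaerobic array at 4.35 h gave 5, and leaving out either anaerobic mid array or either of the last 2 anaerobic arrays gave 4. Without either aerobic mid array, 2 cytosolic genes were called lower. These omission counts come without the share of all tested genes called, so they stand without a background. In the 13-array fit all 13 mitochondrial genes were called lower, with a median change of -1.36, as were 15 of 19 cytosolic genes, with a median of -0.52, where 21.4% of all tested genes were called lower. ALA1, GUS1, ARC1 and DPS1 were the 4 cytosolic genes not called there.

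**Figure D2:**
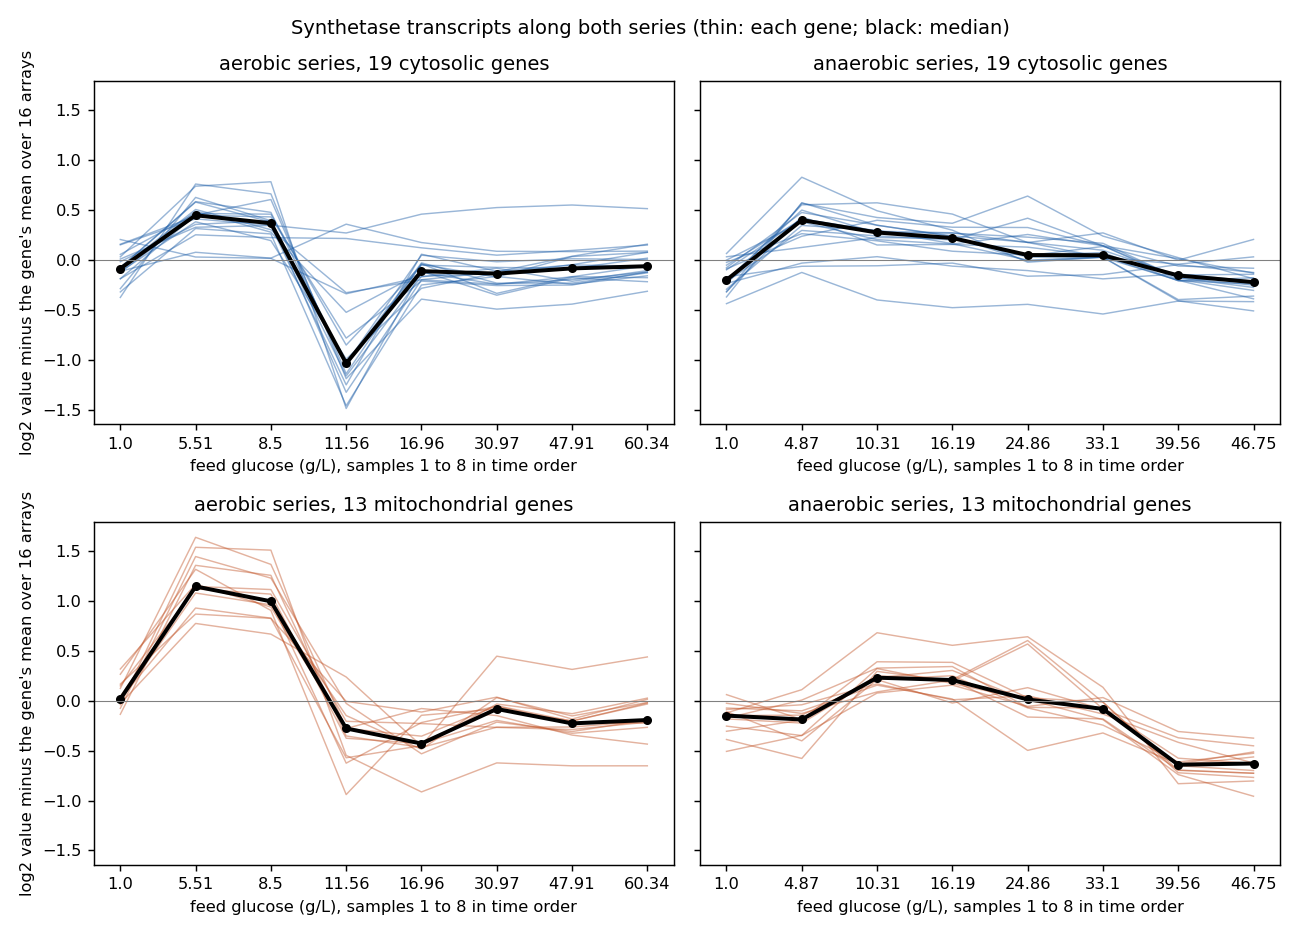
Each thin line is 1 gene, as its log2 value minus its own mean over the 16 arrays (y axis), along the samples in time order labelled by feed glucose in g/L (x axis), and the black line is the median. Mitochondrial genes peak at 5.51 and 8.5 g/L in the aerobic series, and cytosolic genes have a dip at 11.56 g/L that the anaerobic series lacks.

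Among the cytosolic genes the largest aerobic changes were those of the lysyl enzyme KRS1 and the tryptophanyl enzyme WRS1, neither of them called with all 16 arrays. KRS1 measured 9.80, 10.51 and 10.55 in the early samples, 8.28 and 9.66 in the mid samples and 9.42, 9.59 and 9.55 in the late samples. WRS1 measured 12.06, 13.20 and 13.10 in the early samples, 11.24 and 12.04 in the mid samples and 11.94, 11.99 and 12.12 in the late samples. The late KRS1 values lay below all early ones, whereas those of WRS1 overlapped the 0 h sample. KRS1 changed by -0.77 ± 0.33 (SE; adjusted p = 0.136) and WRS1 by -0.77 ± 0.32 (SE; adjusted p = 0.119). In the 13-array fit these were -1.01 ± 0.18 (SE; adjusted p = 0.00133) and -1.13 ± 0.14 (SE; adjusted p = 0.000182), both called.

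ILS1, for isoleucine, measured 13.88, 14.16 and 14.09 in the early samples, 12.68 and 13.69 in the mid samples and 13.49, 13.49 and 13.59 in the late samples. SES1, for serine, measured 13.85, 14.48 and 14.64 in the early samples, 12.89 and 13.99 in the mid samples and 13.70, 13.87 and 13.86 in the late samples. ILS1 had no overlap between early and late, while the 0 h value of SES1 lay among its late ones. The changes were -0.52 ± 0.23 (SE; adjusted p = 0.145) and -0.52 ± 0.27 (SE; adjusted p = 0.203), and in the 13-array fit both were called, with -0.60 ± 0.12 and -0.75 ± 0.10.

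FRS1 and FRS2 encode the beta and alpha subunits of the cytosolic phenylalanyl enzyme, and their changes were alike, -0.33 ± 0.25 (adjusted p = 0.4) and -0.27 ± 0.29 (adjusted p = 0.563). FRS2 measured 12.98, 13.61 and 13.56 in the early samples, 11.84 and 13.05 in the mid samples and 13.13, 13.06 and 13.14 in the late samples. Its 2 highest values were those at 4.1 and 6.85 h. The remaining uncalled changes, from HTS1 at -0.46 ± 0.20 to MES1 at -0.22 ± 0.31, covered the enzymes for histidine, glutamine (GLN4), tyrosine (TYS1), valine (VAS1), leucine (CDC60), threonine (THS1), glycine (GRS1), asparagine (DED81), aspartate (DPS1) and methionine (MES1).

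In 3 cytosolic genes the late mean was not below the early one. ALA1, the alanyl enzyme of both compartments, measured 14.25, 14.51 and 14.45 in the early samples, 14.37 and 14.56 in the mid samples and 14.62, 14.65 and 14.61 in the late samples, a change of 0.23 ± 0.11 (SE; adjusted p = 0.167). GUS1, the glutamyl enzyme, measured 14.75, 14.94 and 14.88 in the early samples, 15.22 and 15.04 in the mid samples and 14.95, 14.95 and 14.95 in the late samples, a change of 0.09 ± 0.09 (SE; adjusted p = 0.51). ARC1 measured 13.70, 14.14 and 14.11 in the early samples, 14.10 and 14.01 in the mid samples and 13.93, 13.98 and 14.03 in the late samples, a change of 0.00 ± 0.12 (SE; adjusted p = 0.994). For ALA1 and GUS1 the late samples lay above all early ones, by small amounts that did not pass the test, and GUS1 was highest at 9.6 h. GUS1 and ARC1 belong to 1 enzyme complex with MES1, whose transcript measured 12.69, 13.60 and 13.37 in the early samples, 11.65 and 12.78 in the mid samples and 12.86, 13.02 and 13.14 in the late samples.

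For 12 amino acids the cytosolic and the mitochondrial enzyme come from separate genes of the list. In the aerobic series the mitochondrial change was the lower one in 11 of these 12 pairs, by a median of -0.70 log2 units. The tyrosine pair differed most, with -0.40 ± 0.18 for TYS1 and -1.65 ± 0.39 for MSY1, a difference of -1.25. TYS1 measured 13.77, 14.36 and 14.16 in the early samples, 13.53 and 13.66 in the mid samples and 13.61, 13.69 and 13.80 in the late samples. The glutamate pair followed, with 0.09 ± 0.09 for GUS1 and -1.07 ± 0.34 for MSE1, with a difference of -1.16. The threonine pair, with -0.30 ± 0.25 for THS1 and -1.13 ± 0.35 for MST1, and the phenylalanine pair, with -0.27 ± 0.29 for FRS2 and -1.10 ± 0.36 for MSF1, both differed by -0.83. THS1 measured 14.52, 14.83 and 14.85 in the early samples, 13.26 and 14.56 in the mid samples and 14.39, 14.46 and 14.44 in the late samples, with its lowest value at 9.6 h. Lysine was the exception, since KRS1 changed by -0.77 ± 0.33 and MSK1 by -0.19 ± 0.22, and in the 13-array fit by -1.01 ± 0.18 and -0.48 ± 0.16. These pairs are set side by side as a description, without a test of each difference, and levels of different probe sets are not compared.

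**Figure D3:**
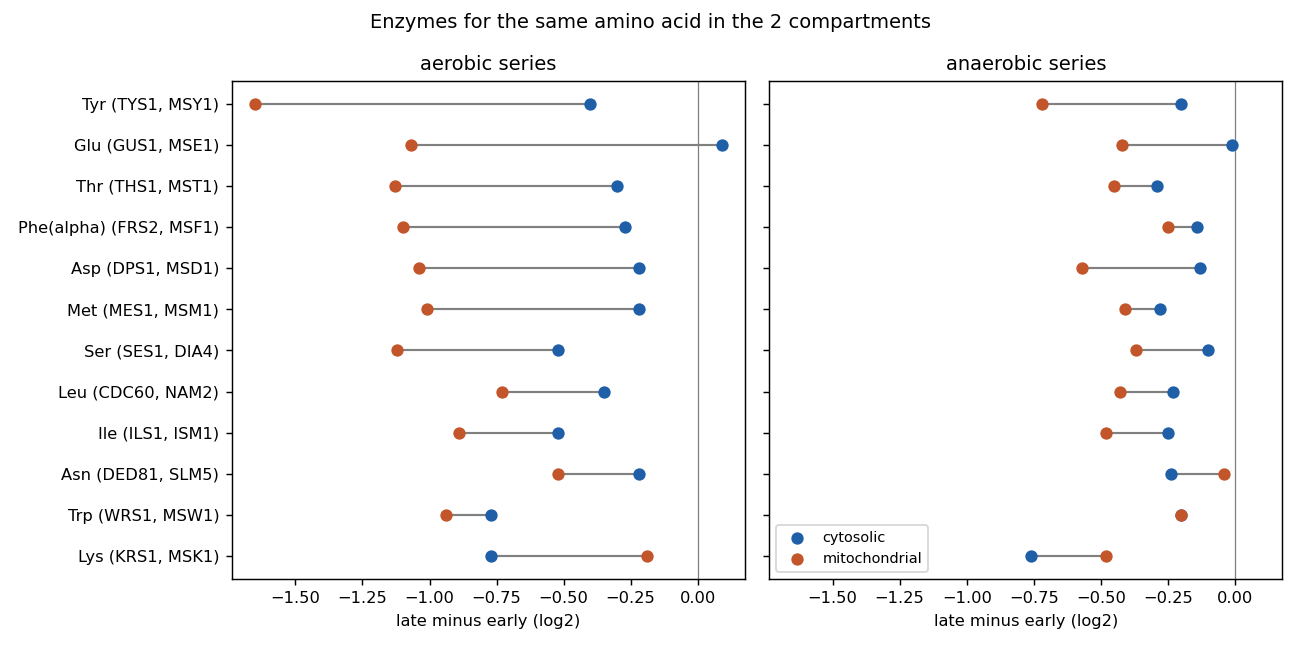
Late minus early change in log2 units (x axis) of the cytosolic (blue) and the mitochondrial (orange) enzyme for each of 12 amino acids (y axis), with a line joining the pair. In the aerobic panel 11 of 12 orange points lie left of their blue partner, in the anaerobic panel 10 of 12, where the tryptophan points nearly coincide.

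In the anaerobic series no synthetase gene was called with all 16 arrays. The median change was -0.24 in the 19 cytosolic and -0.43 in the 13 mitochondrial genes, and every one of the 32 changes was below 0, against a median of 0.00 over all tested genes, of which 2.34% were called lower. At an unadjusted p under 0.05, limma gave 2 cytosolic and 2 mitochondrial genes, with no share of all tested genes at that threshold. In 1 cytosolic gene (KRS1) and 4 mitochondrial genes (MSK1, MSM1, MSR1 and NAM2) all late samples lay below all early ones, which held for 14.9% of tested genes. In the 13-array fit 15 cytosolic genes (median -0.41) and 6 mitochondrial genes (median -0.52) were called lower, against 19.7% of all tested genes.

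KRS1 was again the cytosolic gene of largest change and measured 9.84, 10.60 and 10.26 in the early samples, 10.07 and 9.75 in the mid samples and 9.80, 9.36 and 9.26 in the late samples. Its change was -0.76 ± 0.33 (SE; adjusted p = 0.198), and -0.96 ± 0.18 (SE; adjusted p = 0.005) in the 13-array fit. VAS1, the valyl enzyme of both compartments, measured 13.73, 14.24 and 14.12 in the early samples, 14.05 and 13.86 in the mid samples and 13.86, 13.43 and 13.47 in the late samples, a change of -0.45 ± 0.21 (SE; adjusted p = 0.231). GLN4, the glutaminyl enzyme, measured 12.53, 12.99 and 12.87 in the early samples, 12.86 and 12.76 in the mid samples and 12.61, 12.38 and 12.19 in the late samples, a change of -0.40 ± 0.18 (SE; adjusted p = 0.198). HTS1, the histidyl enzyme of both compartments, measured 13.77, 14.09 and 14.25 in the early samples, 14.18 and 14.18 in the mid samples and 14.00, 13.66 and 13.55 in the late samples, a change of -0.30 ± 0.20 (SE; adjusted p = 0.394). In all 4 genes the last 2 samples held the lowest values, and all 4 were called lower in the 13-array fit.

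MSY1 was again the mitochondrial gene of largest change and measured 10.82, 11.05 and 11.62 in the early samples, 11.50 and 11.58 in the mid samples and 11.08, 10.11 and 10.14 in the late samples. The last 2 samples stood below the other 6, and the sample at 33.1 g/L did not. The change was -0.72 ± 0.39 (SE; adjusted p = 0.298), and -0.90 ± 0.27 (SE; adjusted p = 0.0233) in the 13-array fit. MSD1 measured 10.59, 10.34 and 10.92 in the early samples, 10.92 and 10.56 in the mid samples and 10.52, 9.83 and 9.80 in the late samples, a change of -0.57 ± 0.27 (SE; adjusted p = 0.236). MSR1 measured 11.02, 10.92 and 11.14 in the early samples, 11.25 and 10.88 in the mid samples and 10.86, 10.35 and 10.32 in the late samples, a change of -0.51 ± 0.20 (SE; adjusted p = 0.156). ISM1 measured 10.73, 10.91 and 11.23 in the early samples, 11.25 and 10.84 in the mid samples and 10.83, 10.26 and 10.34 in the late samples, a change of -0.48 ± 0.27 (SE; adjusted p = 0.324). These 3 genes likewise had their 2 lowest values in the last 2 samples. MSK1 measured 11.45, 11.42 and 11.67 in the early samples, 11.54 and 11.02 in the mid samples and 11.20, 10.88 and 11.01 in the late samples, a change of -0.48 ± 0.22 (SE; adjusted p = 0.209). SLM5 changed least, by -0.04 ± 0.23 (SE; adjusted p = 0.938).

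The 2 aspartate genes differed by -0.44 log2 units in the anaerobic series, DPS1 changing by -0.13 ± 0.10 and MSD1 by -0.57 ± 0.27. DPS1 measured 14.10, 14.19 and 14.29 in the early samples, 14.29 and 14.11 in the mid samples and 14.20, 14.01 and 13.99 in the late samples, and its whole range was 0.31. The tyrosine pair differed by -0.52 and the glutamate pair by -0.41, where MSE1 measured 10.59, 10.70 and 11.15 in the early samples, 11.11 and 11.50 in the mid samples and 10.88, 10.18 and 10.13 in the late samples. Over the 12 pairs the mitochondrial change was the lower one in 10, with a median difference of -0.19 over all 12, and in 7 of 12 in the 13-array fit. Asparagine and lysine were the 2 exceptions, and the tryptophan pair differed by only -0.0032.

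Sample by sample, the mitochondrial genes had lower values at the step where the nitrogen-scavenging mean was higher, in both series. Between 6.85 and 9.6 h of the aerobic series, all 13 mitochondrial genes had lower values, with a median step of -1.40, while the nitrogen-scavenging mean stepped by 5.83. Between 35.67 and 42.85 h of the anaerobic series all 13 again had lower values, with a median step of -0.51 beside a nitrogen-scavenging step of 3.87. Of all tested genes, 38.2% had lower values at the first of these steps and 41.4% at the second. Cytosolic genes had lower values in 18 of 19 cases at the aerobic step (median -1.41) and in 16 of 19 at the anaerobic one (median -0.23). The aerobic step ends on the 9.6 h array, which stood apart from its series. From 9.6 to 14.5 h, 17 of 19 cytosolic genes had higher values (median 0.80), as had 4 of 13 mitochondrial genes (median -0.08). With oxygen 13 of 13 mitochondrial genes were also lower from 4.1 to 6.85 h (median -0.11), and 12 from 27.25 to 42.65 h (-0.13). Without oxygen 11 were lower from 26.52 to 35.67 h (-0.17). Nitrogen-scavenging steps there were -0.10, 0.03 and 0.11, and 62.7%, 57.1% and 56.2% of all tested genes were lower. At the aerobic steps ending at 27.25 and 53.95 h, 11 and 12 of 13 were higher. These steps rest on 1 array each side and were picked after the values were seen. Glucose supply and time move with them, and their part was not tested.

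**Figure D4:**
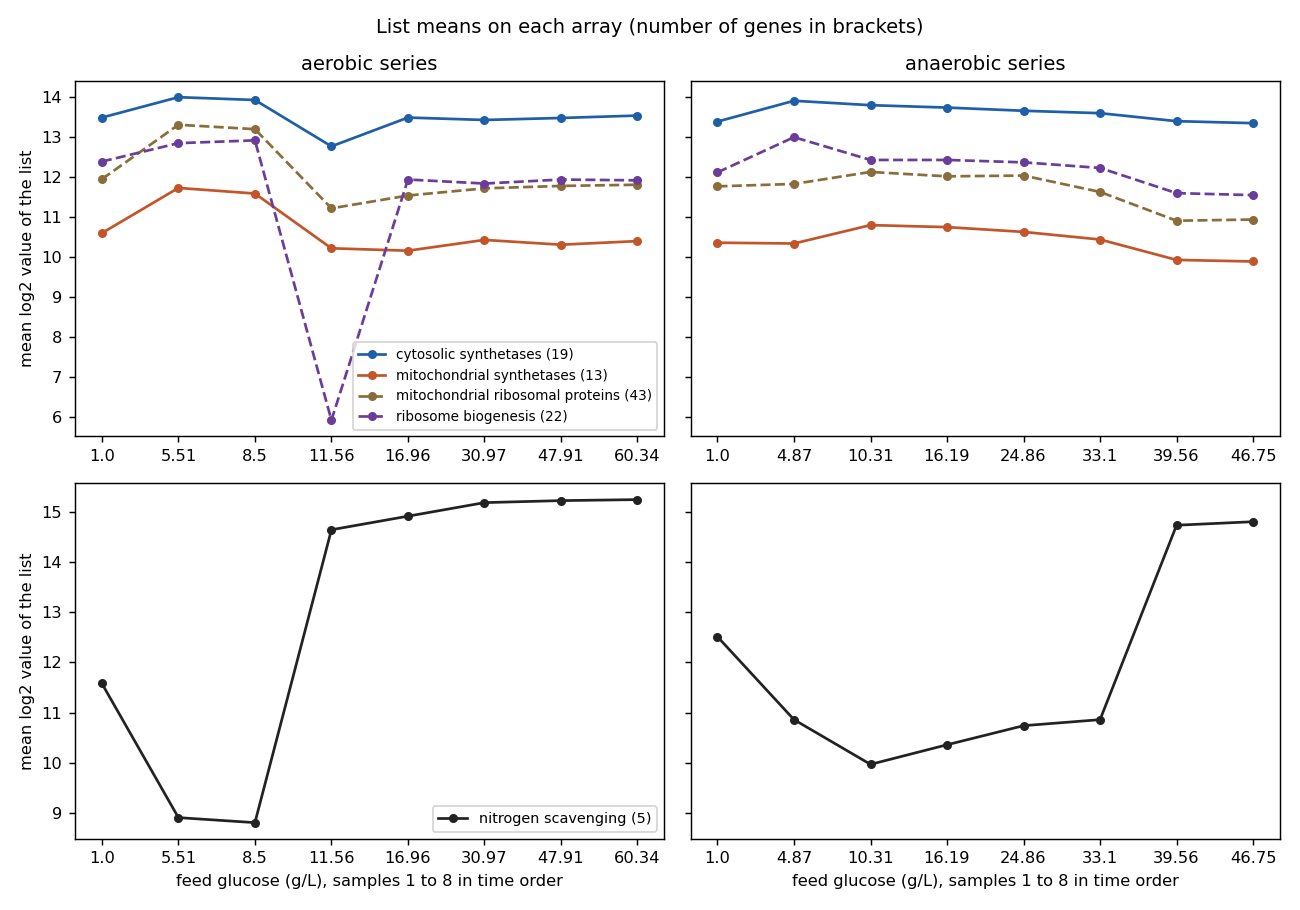
Mean log2 value of each gene list (y axis) on every array, in time order labelled by feed glucose in g/L (x axis); the upper panels show the synthetases, mitochondrial ribosomal proteins and ribosome biogenesis genes, the lower ones 5 nitrogen-scavenging genes. Mitochondrial synthetases and mitochondrial ribosomal proteins are lower from 11.56 g/L in the aerobic and from 39.56 g/L in the anaerobic series, where the nitrogen-scavenging mean is 14.64 or higher.

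The start of the series also differed between the groups. From 0 to 4.1 h with oxygen, all 13 mitochondrial genes had higher values, with a median step of 1.08 and a range from 0.70 to 1.58, and so had 18 of 19 cytosolic genes, with a median of 0.57. From 0 to 4.35 h without oxygen all 19 cytosolic genes had higher values, with a median of 0.51, whereas 6 of 13 mitochondrial genes did, with a median of -0.03. The anaerobic mitochondrial genes were higher at the next step, from 4.35 to 10.38 h, in 13 of 13 cases with a median of 0.45. All-gene medians at these 3 steps were 0.02, -0.09 and -0.06. All 13 mitochondrial genes peaked at 4.1 h in the aerobic series, and in the anaerobic series 6 peaked at 10.38 h, 5 at 16.88 h and 2 at 26.52 h. Measured from the 0 h array alone, late values differed by a median of -0.04 in cytosolic and -0.21 in mitochondrial genes with oxygen, and of 0.06 and -0.25 without.

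The 3 late samples lay after the step in the aerobic series and on both sides of it in the anaerobic one. From the first to the last late sample the median difference was 0.12 in cytosolic and -0.01 in mitochondrial genes with oxygen, and -0.28 and -0.55 without. That anaerobic difference holds the step itself. Between the last 2 samples the medians were 0.07 in cytosolic and 0.12 in mitochondrial genes with oxygen, and -0.07 and -0.05 without.

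At 9.6 h in the aerobic series 16 of 19 cytosolic genes had the lowest value of that series. Against the mean of the samples before and after, the median difference was -1.21 in cytosolic genes, with a range from -1.82 (KRS1) to 0.26 (GUS1), and -0.71 in mitochondrial genes. Over all tested genes the median was 0.23, and the same measure at the anaerobic sample 4 was 0.02 in cytosolic genes. ALA1, ARC1 and GUS1 were the 3 cytosolic genes without a minimum there. Of the mitochondrial genes, 3 were lowest at 9.6 h and 7 at 14.5 h. On the same array the mean of 22 ribosome biogenesis genes was 5.91, against 11.83 to 12.91 on the other aerobic arrays, and that of 29 tRNA modification genes was 8.11, against 10.54 to 11.17. This dip rests on 1 array, and whether it belongs to the culture or to that RNA sample was not tested.

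The difference between the series in the change itself was tested as an interaction. The late groups were unlike in the nitrogen-scavenging mean. It was 15.18, 15.22 and 15.24 in the aerobic late samples, and 10.86, 14.73 and 14.80 in the anaerobic ones. The part of the first anaerobic late sample in these differences was not tested. With all 16 arrays no synthetase gene was called by limma, while 1.82% of all tested genes were called in either direction. An unadjusted p under 0.05 was reached by 1 cytosolic and 1 mitochondrial gene, with no share of all tested genes at that threshold. The median difference, anaerobic minus aerobic, was 0.61 in mitochondrial and 0.01 in cytosolic genes, against -0.09 over all tested genes. The largest mitochondrial differences were 0.92 ± 0.55 (SE; adjusted p = 0.497) for MSY1, 0.85 ± 0.51 (SE; adjusted p = 0.496) for MSF1, 0.75 ± 0.33 (SE; adjusted p = 0.317) for DIA4 and 0.73 ± 0.39 (SE; adjusted p = 0.423) for MSW1. The largest cytosolic ones were 0.57 ± 0.45 (SE; adjusted p = 0.634) for WRS1, 0.42 ± 0.38 (SE; adjusted p = 0.692) for SES1, -0.36 ± 0.15 (SE; adjusted p = 0.276) for ALA1 and 0.27 ± 0.33 (SE; adjusted p = 0.815) for ILS1. MSM1 alone was called in the 13-array fit, at 0.93 ± 0.21 (SE; adjusted p = 0.0226), where 9.76% of all tested genes were called. Leaving out the aerobic 0 h array also gave 1 called member in this contrast, and 1 mitochondrial gene called lower in the anaerobic series. No share of all tested genes is given for this omission.

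The anaerobic values behind these differences had a smaller range, except for ALA1, whose range was 0.42 without oxygen and 0.40 with it. In MSW1, WRS1, SES1 and ILS1 the lowest aerobic value was that of the 9.6 h array, which is in neither the early nor the late group. Leaving that value aside, ILS1 ran from 13.49 to 14.16 with oxygen, much as from 13.44 to 14.12 without. DIA4 measured 9.55, 9.50 and 9.96 in the early samples, 10.03 and 9.73 in the mid samples and 9.65, 9.15 and 9.10 in the late samples without oxygen. MSF1 measured 10.25, 10.06 and 10.93 in the early samples, 10.83 and 11.20 in the mid samples and 10.55, 9.98 and 9.93 in the late samples, highest at 24.86 g/L. MSW1 measured 9.47, 9.17 and 9.79 in the early samples, 9.55 and 9.71 in the mid samples and 9.49, 9.20 and 9.12 in the late samples. Early and late samples overlapped in all 3 genes. WRS1 measured 12.11, 13.00 and 12.86 in the early samples, 12.80 and 13.08 in the mid samples and 12.67, 12.46 and 12.25 in the late samples, and SES1 measured 13.82, 14.33 and 14.27 in the early samples, 14.23 and 14.45 in the mid samples and 14.18, 14.05 and 13.90 in the late samples, both highest at 24.86 g/L. ILS1 measured 13.51, 14.12 and 13.99 in the early samples, 13.99 and 13.95 in the mid samples and 13.89, 13.54 and 13.44 in the late samples. In all 3 of these cytosolic genes the 0 h sample lay within or below the late ones. ALA1 without oxygen measured 13.66, 13.97 and 13.70 in the early samples, 13.62 and 13.65 in the mid samples and 13.56, 13.69 and 13.68 in the late samples, with a single higher value at 4.87 g/L.

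Between the series, array medians over all probe sets were 11.33 to 11.51 with oxygen and 10.78 to 10.97 without, so levels were compared after each array was centred on its median over tested genes. After centring, 18 of 19 cytosolic genes were called higher without oxygen and 1, ALA1, was called lower, while 29.8% of all tested genes were called higher and 23.3% lower. The median cytosolic difference was 0.78. Of the 13 mitochondrial genes 2 were called higher and none lower, with a median difference of 0.36 and 6 genes at an unadjusted p under 0.05. For the count of 6 no share of all tested genes is given. The 13-array fit gave 18 genes higher and 1 lower in the cytosolic and 4 higher in the mitochondrial group, where 35.2% of all genes were called higher and 26.9% lower. The mitochondrial count of 2 was 7 without the aerobic 4.1 h array, 4 without the 6.85 h array, and 1 without any one of the 3 aerobic late arrays or the anaerobic arrays at 10.38, 16.88 and 35.67 h. No share of all tested genes is given for these omissions.

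These directions depended on the centring. With the values as deposited the median difference over all tested genes was -0.51 in place of 0.06, 4 cytosolic genes (FRS2, WRS1, DED81 and DPS1) were called higher, 3 (ALA1, GUS1 and ARC1) and 2 mitochondrial genes (MSK1 and MSR1) were called lower, and the median was 0.21 in cytosolic and -0.22 in mitochondrial genes. With renewed quantile normalization 16 cytosolic genes were called higher and 2, ALA1 and GUS1, lower. The shares of all tested genes called under these 2 scalings are not given, so their counts stand without a background. Whether the 2 series were normalized together is not given in the sources used here.

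**Figure D5:**
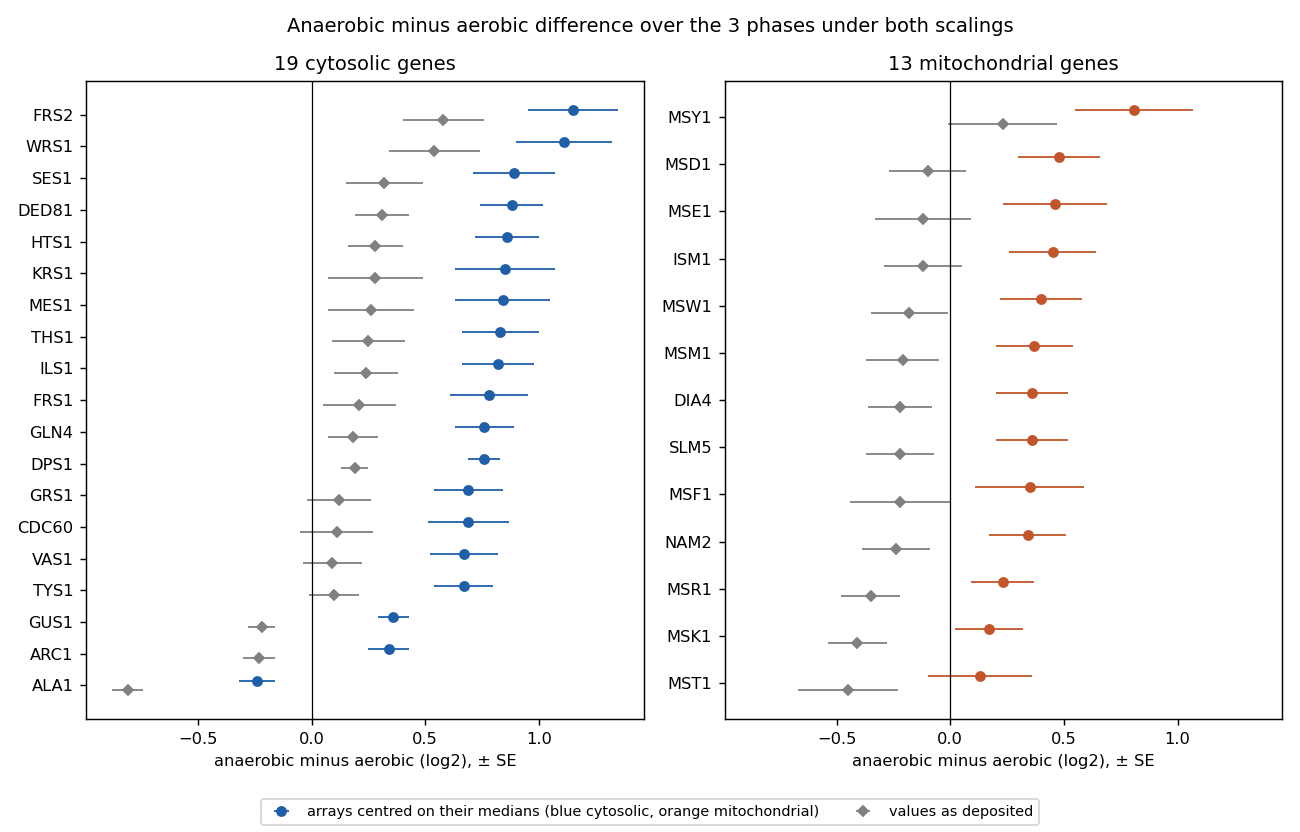
Anaerobic minus aerobic difference in log2 units (x axis), with bars of 1 standard error, of each gene (y axis) after centring the arrays (coloured circles) and as deposited (grey diamonds). ALA1 lies left of 0 in both, FRS2 and WRS1 right of 0 in both, and most mitochondrial genes change side.

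FRS2 and WRS1, the alpha subunit for phenylalanine and the enzyme for tryptophan, had the largest positive differences under both scalings. Centred FRS2 values ran from 0.23 to 2.12 with a median of 1.51 on the aerobic arrays, and from 1.99 to 2.96 with a median of 2.56 on the anaerobic arrays. The ranges overlapped only slightly, and the difference was 1.15 ± 0.20 (SE; adjusted p = 0.000554), or 2.22-fold. WRS1 differed by 1.11 ± 0.21 (SE; adjusted p = 0.00107). DPS1, for aspartate, had ranges that did not overlap, from 2.12 to 2.70 with oxygen and from 2.97 to 3.38 without, and differed by 0.76 ± 0.07 (SE; adjusted p = 7.79e-06).

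ALA1 was the only member that was lower without oxygen under centring, as deposited and under quantile normalization, by -0.24 ± 0.08 (SE; adjusted p = 0.0225), -0.81 ± 0.07 and -0.51 ± 0.07. Its deposited values were 14.25 to 14.65 on the aerobic and 13.56 to 13.97 on the anaerobic arrays and did not overlap, but the centred ranges, 2.68 to 3.08 and 2.59 to 3.01, did. The centred call of ALA1 was lost without the aerobic 14.5 h array (adjusted p = 0.0523) and without the anaerobic 26.52 h array (adjusted p = 0.0529). Among mitochondrial genes MSY1 differed by 0.81 ± 0.26 (SE; adjusted p = 0.0207) after centring and by 0.23 ± 0.24 as deposited, and MSD1 by 0.48 ± 0.18 (SE; adjusted p = 0.0432) and -0.10 ± 0.17.

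Other synthetase genes were set beside the members. AIM10, for mitochondrial proline, measured 11.10, 12.09 and 11.96 in the early samples, 10.91 and 10.58 in the mid samples and 10.78, 10.84 and 10.88 in the late samples and was called lower late, at -0.89 ± 0.25 (SE; adjusted p = 0.0344). YHR020W, for cytosolic proline, changed by -0.46 ± 0.45 (adjusted p = 0.517) and measured 11.16 at 9.6 h against 13.61 to 14.41 on the other aerobic arrays. YDR341C, for cytosolic arginine, changed by -0.30 ± 0.18 (adjusted p = 0.284). GRS2, a paralogue of GRS1 that is dispensable for growth, had values in the other direction: it measured 11.16, 9.96 and 9.81 in the early samples, 11.67 and 10.97 in the mid samples and 10.96, 10.96 and 10.97 in the late samples, a change of 0.65 ± 0.32 (adjusted p = 0.176), and was highest at 9.6 h, where GRS1 was lowest. In the 13-array fit GRS2 was called higher in both series, at 1.08 (adjusted p = 0.000655) and 0.86 (adjusted p = 0.00552), where GRS1 was called lower. AIM10 (-1.19), YHR020W (-0.62) and YDR341C (-0.29) were called lower in the aerobic series there, and YHR020W and YDR341C (both -0.40) in the anaerobic series.

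Glutaminyl-tRNA in yeast mitochondria is made by an amidotransferase rather than a synthetase. Its 3 genes were not called with all 16 arrays: HER2 changed by -0.60 ± 0.29 and PET112 by -0.54 ± 0.24 in the aerobic series, and GTF1 by 0.49 ± 0.16 (adjusted p = 0.187, 0.146 and 0.0564). The 13-array fit called HER2 (-1.06, adjusted p = 0.000409) and PET112 (-0.72, adjusted p = 0.0102) lower and GTF1 (0.56, adjusted p = 0.00572) higher with oxygen, and of the 3 only GTF1, higher at 0.38 (adjusted p = 0.0471), without oxygen. In that fit 33.1% of all tested genes were called higher in the aerobic and 20.9% in the anaerobic series, beside the 21.4% and 19.7% called lower. Of the 4 genes that sense uncharged tRNA or respond to it, 1 was called higher in the aerobic series, where 11.2% of all tested genes were. That gene, GCN2, measured 11.69, 11.23 and 11.15 in the early samples, 12.24 and 12.12 in the mid samples and 12.09, 11.98 and 11.97 in the late samples, a change of 0.66 ± 0.14 (adjusted p = 0.0118). GCN4 transcript changed by 0.28 ± 0.13 (adjusted p = 0.161), GCN1 by -0.22 ± 0.17 (adjusted p = 0.415) and GCN20 by 0.09 ± 0.18 (adjusted p = 0.761). None of the 4 was called in the anaerobic series, with 0 at an unadjusted p under 0.05 in limma. Without the 3 arrays GCN2 (0.82, adjusted p = 0.000261) and GCN4 (0.38, adjusted p = 0.00141) were called higher and GCN1 (-0.36, adjusted p = 0.0109) lower with oxygen. Without oxygen the same fit called GCN2 (0.33, adjusted p = 0.0299) and GCN4 (0.33, adjusted p = 0.00704) higher.

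Other genes of translation were counted by compartment, beside the background of 4.28% called lower with oxygen and 2.34% without. Of 11 mitochondrial translation factors, 6 were called lower in the aerobic series (median -0.86), and of 43 mitochondrial ribosomal proteins, 23 (median -1.06). The ribosome recycling factor RRF1 changed by -1.40 ± 0.28 (adjusted p = 0.0085), the elongation factor MEF1 by -1.24 ± 0.36 (adjusted p = 0.0398) and the tRNA-modifying MTO1 by -1.64 ± 0.58 (adjusted p = 0.074). MEF1 was also called lower in the anaerobic series, at -1.53 ± 0.36 (adjusted p = 0.0294), as the one such factor. Of 33 cytosolic translation factors 1 was called lower with oxygen, the release factor SUP35 at -0.47 ± 0.12 (adjusted p = 0.0255), and 1 without, HYP2 at -0.48 ± 0.11 (adjusted p = 0.028). Both counts of cytosolic factors were near the shares of all tested genes. Without the 3 arrays 24 and 21 of the 33 were called lower, as were 9 and 6 of the 11 mitochondrial factors, in the aerobic and anaerobic series. The mitochondrial ribosomal proteins called lower then numbered 43 of 43 (median -1.54) and 42 of 43 (median -0.86), where 21.4% and 19.7% of all tested genes were, whereas none of the 43 was called in the anaerobic series with all 16 arrays.

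Genes that make and mature tRNA were counted in the same way, beside the aerobic background of 11.2% called higher and 4.28% lower. Of 19 genes for RNA polymerase III and its factors, 6 were called higher and none lower in the aerobic series, the repressor MAF1 at 0.81 ± 0.24 (adjusted p = 0.0405), the initiation factor genes BRF1 at 0.60 ± 0.16 (adjusted p = 0.0251) and BDP1, and the assembly factor genes TFC3, TFC4 and TFC6. The polymerase subunit RPC17 changed by -0.81 ± 0.52 (adjusted p = 0.306). Of 20 genes for tRNA cutting, splicing, end repair and export 1 was called higher and none lower, a smaller share than that of all tested genes, RPR2 of ribonuclease P, at 1.13 ± 0.35 (adjusted p = 0.0479). Of 29 genes for tRNA modification 2 were called lower, PUS6 at -0.84 ± 0.20 (adjusted p = 0.0157) and TAD2 at -1.25 ± 0.34 (adjusted p = 0.0293). None of these 3 lists held a called gene in the anaerobic series. There limma gave 0, 2 and 3 genes at an unadjusted p under 0.05, with no share of all tested genes at that threshold. Without the 3 arrays RNA polymerase III genes were called in both directions, 6 of 19 higher and 8 lower with oxygen and 1 higher and 4 lower without. Of all tested genes, that fit called 33.1% higher and 21.4% lower with oxygen, and 20.9% and 19.7% without. The 8 called lower with oxygen were above their share, and the other counts were near or below theirs. Genes for tRNA cutting and export gave 3 higher and 3 lower with oxygen and 3 lower without, below or near the backgrounds of that fit. Of the 29 tRNA modification genes, 16 were called lower with oxygen and 21 without, and none higher, against 21.4% and 19.7% of all tested genes.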

How the data were processed

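RNA from 16 samples was biotin-labelled and hybridized to single-channel Affymetrix arrays, per the labels' protocols. The values deposited by the authors are log2 values made with GCRMA, per the submitters' processing notes. Base 2 was inferred from their range, and the GCRMA options are not stated in the sources used here. Of 5716 probe sets 5498 carried 1 gene symbol; the 218 unnamed ones were not used. Where a gene had more than 1 probe set (47 genes), that of highest mean stood for it. Tested were 5213 of 5449 genes, those reaching 4 log2 units on at least 3 arrays.

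A model of 6 cell means (oxygen condition by early, mid and late feed glucose) was fitted to the 16 arrays by limma 3.58.1 under R 4.3.3, using lmFit and trended eBayes with 10 residual degrees of freedom. Adjusted p-values are Benjamini-Hochberg over all tested genes. The oxygen contrast used arrays centred on their medians. The number of arrays limits the precision.

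The members and the gene lists were chosen with earlier results of these data known. Named with values in every sample were the 4 largest changes per compartment in the first 3 contrasts, the 3 most different pairs per series, and called or contrasting members. Other lists are shown by their largest changes, and lists of up to 5 genes in full. YNL247W, TRM61, TIF1, TEF1, EFT1 and FMT1 have no value here. Alternatives were other filters, scalings, probe-set rules, variance models, phase limits, slopes, each series alone and leaving out arrays. The model was tested on simulated data.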

Additional observations from a re-analysis of the deposited data

How the results depend on the processing

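The median changes of both compartments kept their direction in both series under every alternative run, and the aerobic cytosolic median moved from -0.33 to -0.02 when the 4 lowest were set against the 4 highest feed glucose samples. The aerobic count of 8 mitochondrial genes called lower was 1 with the aerobic arrays alone and 0 both with 4 against 4 samples and with a slope on feed glucose. It was 13 without the 3 arrays, and 1 to 13 when 1 array was left out. The aerobic cytosolic count of 0 became 15 without the 3 arrays, 2 without the 9.6 h array, and 0 to 6 when 1 array was left out. The anaerobic counts of 0 became 15 cytosolic and 6 mitochondrial without the 3 arrays, and 0 to 1 mitochondrial when 1 array was left out. For the difference of changes the mitochondrial count of 0 became 1 without the 3 arrays and 0 to 1 when 1 array was left out. The oxygen count of 18 cytosolic genes called higher was 4 with values as deposited. The mitochondrial count of 2 was 0 with values as deposited, with 4 against 4 samples and with a slope, 4 without the 3 arrays, and 1 to 7 when 1 array was left out. Shares of all tested genes are given above for the main and 13-array fits, and not for the other alternatives. With values as deposited the oxygen difference changed sign in 12 of 13 mitochondrial genes, all but MSY1, and in 2 cytosolic ones. Called with either scaling were ARC1 (-0.23), GUS1 (-0.22), MSD1 (-0.10), MSK1 (-0.41) and MSR1 (-0.35) among these, and the sign also changed with quantile normalization for GUS1 (-0.15). The cause of these changes was not tested, except that the 4 against 4 grouping by construction puts the 9.6 h array among the low samples. No paired analysis was possible because the labels give no replicate numbers. Outliers within a group were not tested, since no group holds 4 samples, and signal over background was not assessed.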
